A study of Caenorhabditis elegans with 18 samples.

Results

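The tables of expression in Caenorhabditis elegans hold 294 transcripts, named Novel00001 to Novel00294, that carry no WormBase gene number. They are the rows whose identifier does not begin with WBGene, 294 of 47020 rows, and each of the 5 tables lists all of them beside 46726 annotated genes. Wild type N2 worms were fed bacteria making double-stranded RNA from the L1 larval stage. At late L3 they were moved to fresh RNAi plates with no cadmium or with 300 μM cadmium and kept there for 12 h. The bacteria carried pPD129.36 in control(RNAi), which the labels call an empty vector and the study's methods describe as making a double-stranded RNA that matches no worm gene, or targeted the numr pair in numr-1/2(RNAi) or 1 Integrator gene in ints-4(RNAi). With and without cadmium this gave 6 groups, and each had 3 libraries of whole worms. The study's methods give the animals as late L4 to young adult, while the series' design text describes gravid ones. In whole worms, fewer cells of a type and less RNA per cell cannot be told apart.

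Transcripts without a gene number are usually assembled from reads that do not match a gene of the annotation used, but no source used here states how these were made. Such transcripts can be non-coding RNA, read-through past the end of a gene, or exons that an annotation lacks. Integrator is a protein complex bound to RNA polymerase II that cuts the 3′ ends of small nuclear RNAs and ends transcription early at many other sites, and ints-4 codes for one of its subunits. RNA for these libraries was selected by its poly(A) tail, so RNAs that normally have no tail are seen mainly when they are polyadenylated. Cadmium is a toxic metal that binds thiols, and numr-1 and numr-2 are copies of identical sequence in C. elegans that respond to metals. The sources used here give no position, sequence or name for any member, so each is described by its values alone. If they were assembled from these libraries, a transcript abundant in any group was more likely to be listed, and their number is then not independent of their expression.

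The deposited values were split into whole reads of single libraries, called a, b and c within each group, with no meaning to the order. The 18 libraries held 13516478 to 17685217 reads over the 46444 features split in all of them. These features held 42.1% to 46.3% of a group's deposited total. The most abundant genes were left out, since values above 100000 were not tried and some lower ones had several solutions. Library shares are therefore given out of split reads. Library c of control(RNAi) with cadmium stood apart, with 16643 features read against 18968 and 19007 in the other libraries of its group. The ints-4 gene had 1516 ± 184 normalized reads in control(RNAi) and 649 ± 53.4 in ints-4(RNAi) (SD, n = 3), a log2 fold change of -1.20 ± 0.11 (SE, limma adjusted p = 0.000133). Of the numr-1/2 pair, WBGene00017267 had 24.7 ± 16.9 normalized reads in the control and 29.0 ± 11.8 after numr-1/2(RNAi), and WBGene00017270 had 3.18 ± 2.26 and 1.94 ± 1.68. Without cadmium these low levels did not show the knockdown. With cadmium both were lower in numr-1/2(RNAi), by 1.40 and 2.11 on the log2 scale, with adjusted p of 0.00205 and 0.00491. Reads of such copies can be assigned to either gene.

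Unannotated transcripts took a small share of the reads, and the share was highest in the ints-4(RNAi) libraries. Out of 1000000 of the whole deposited total of a group, members took 202 in control(RNAi), 248 after numr-1/2(RNAi) and 465 after ints-4(RNAi). With cadmium the values were 258, 308 and 433, with no replicates at this level. Per library, out of 1000000 split reads, they took 430.4 to 546 in control(RNAi). After numr-1/2(RNAi) the range was 522.6 to 574, while that of ints-4(RNAi) was 984 to 1074. With cadmium the ranges were 507 to 678, 634 to 693 and 947 to 1112. No ints-4(RNAi) library, with or without cadmium, overlapped a library of another RNAi. The number of members with at least 1 read was also highest there, at 264 to 270 in ints-4(RNAi) against 165 to 179 for the control and 160 to 183 for numr-1/2(RNAi). Annotated genes with a read were also more numerous after ints-4(RNAi), at 20861 to 21156 per library against 18005 to 18123 in control(RNAi). With cadmium, 138, 201 and 207 members were read in the control(RNAi) libraries, the lowest in library c, and 259 to 268 in ints-4(RNAi).

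**Figure D1:**
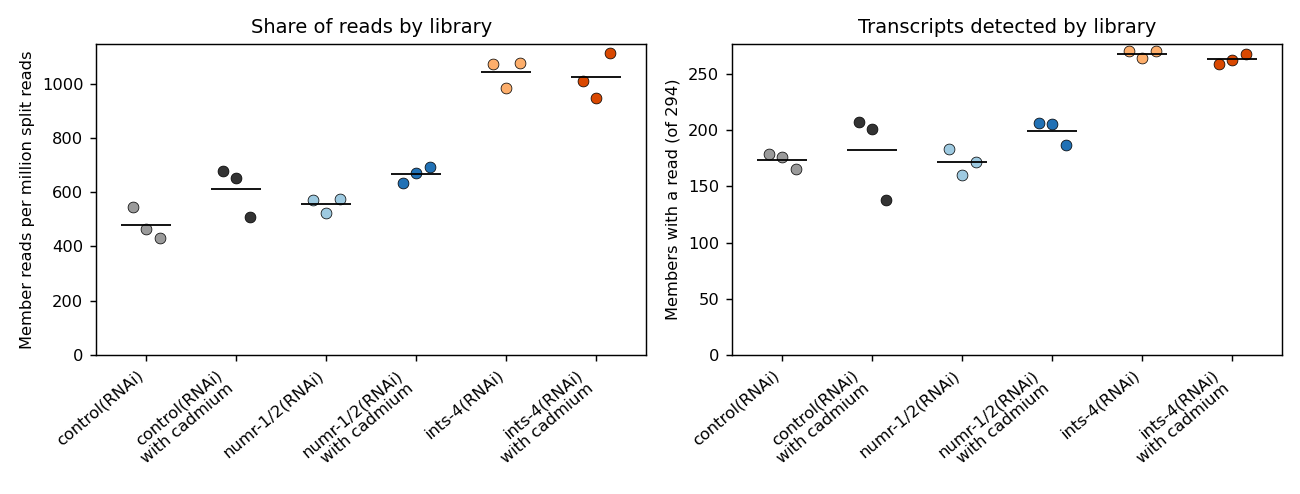
Reads of the 294 unannotated transcripts out of each 1000000 split reads (left) and the number of them with a read (right) in each of the 18 libraries, with bars at the group means. The 6 ints-4(RNAi) libraries sit at 947 to 1112 such reads and 259 to 270 members, above all 12 others.

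Most members were scarce. A member had a median of 180 reads over all 18 libraries, against 766 for annotated genes with a read. The 5 members with the most reads, Novel00293, Novel00151, Novel00113, Novel00119 and Novel00182, held 34.5% of all 205099 member reads. At the other end, 10 members had no read in any library, which allows up to 3 reads over all libraries by counting error, and 41 more had a mean below 3 reads per library. No read was found for 77 members in control(RNAi), for 15 in ints-4(RNAi) and, as in the control, for 77 after numr-1/2(RNAi).

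The most abundant members differed in how they moved. Novel00293 had 348, 389 and 310 reads in control(RNAi), 1037, 1748 and 1986 in ints-4(RNAi), and 2453, 2379 and 3262 in ints-4(RNAi) with cadmium. It was higher after ints-4(RNAi), by 2.09 ± 0.25 on the log2 scale (SE, adjusted p = 0.0005), and also higher with cadmium in each RNAi. In contrast, Novel00151 had 1136, 917 and 791 reads in control(RNAi) and 774, 707 and 762 in ints-4(RNAi), a log2 fold change of -0.38 ± 0.11 (adjusted p = 0.028). Novel00113 ranged from 553 to 947 reads over the 18 libraries and passed the test in none of the 7 comparisons. Novel00176 had 383, 310 and 255 reads in control(RNAi) and was lower in both knockdowns, with 202, 217 and 171 reads after numr-1/2(RNAi), while ints-4(RNAi) had 199, 159 and 195.

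The main comparison asks what changes when ints-4 is silenced without cadmium. Many unannotated transcripts that were nearly unread in control(RNAi) were read in every ints-4(RNAi) library. Over all 294 members, 232 had a higher normalized mean in ints-4(RNAi) than in control(RNAi), 51 a lower one and 11 were at 0 in both. No such count was made over all features. By 2-fold of group values with no filter, 161 of 283 members were higher and 15 lower. Of 25301 features, 18.6% were higher and 7.90% lower by that rule. Of the 246 members with a mean of at least 3 reads per library, 124 were higher and 5 lower at an adjusted p below 0.05, and 117 passed in neither direction. Of all 18551 features tested, 19.3% were higher and 16.9% lower. A member that met the filter only through its ints-4(RNAi) reads had to differ, so the count describes the list and is no test of it. By fold alone, with 2-fold of the deposited group values and a larger value of at least 10, 115 of 198 members were higher and 7 lower, against 12.4% and 8.33% of all features.

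The fitted median over the 246 members was 2.37 on the log2 scale, against 0.10 over all features. Setting the 44 members without a control read to their bound could not move it. The filter kept each bound at 6.11-fold or more, above the median of 5.15-fold. This median depends on which members enter. It was 1.81 over the 165 with a mean of at least 10 reads, and the median by fold of the group values was 2.05 over 198 members, 0.80 over the 142 above 0 in all 6 groups and 0.61 over the 60 with a larger value of at least 50. Members were set beside annotated genes of like depth, taken as the mean reads over both groups. The ints-4(RNAi) reads thus helped to place a member, and a member without a control read had to differ. These counts describe the list and are no test of it. With a mean of 3 to 10 reads, 37 of 81 members and 566 of 2194 annotated genes were higher. With 10 to 30 reads these were 57 of 96 and 433 of 1901, and with 30 to 100 reads 24 of 46 and 482 of 2542. Above 100 reads they were 6 of 23 and 1982 of 11668. Annotated genes differed by kind. Among tested genes, 16.9% of protein-coding genes, 28.7% of pseudogenes and 33.3% of lincRNA genes were higher, as were 54.2% of other ncRNA genes, 51.8% of snoRNA genes and 53.9% of piRNA genes, against 50.4% of the members. Of 39 small nuclear RNA genes tested, 36 were higher, and the summed value of the 129 listed was 26.3 in control(RNAi) and 12001 in ints-4(RNAi).

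**Figure D2:**
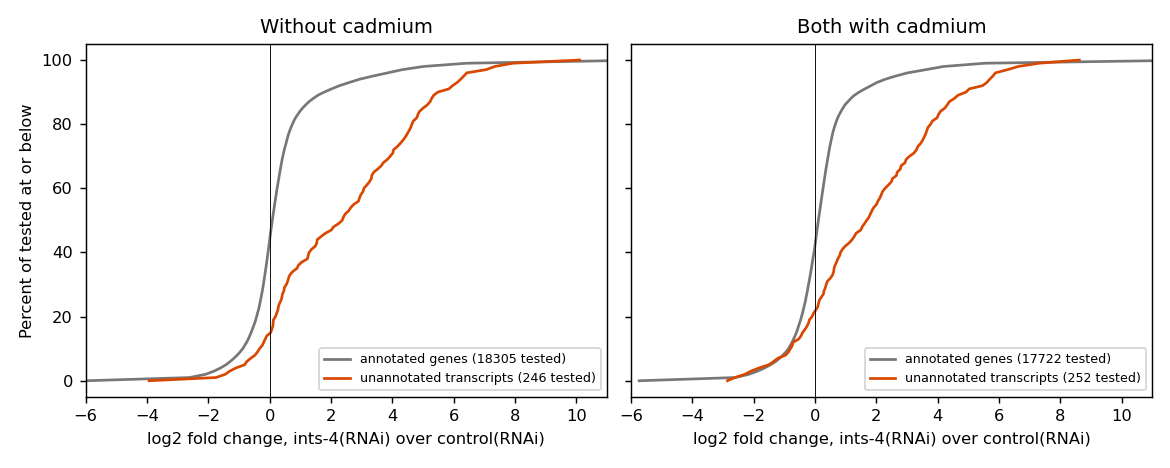
Percent of tested unannotated transcripts (orange) and annotated genes (grey) at or below each log2 fold change of ints-4(RNAi) over control(RNAi), without cadmium (left) and with cadmium on both sides (right). The median of the members is 2.37 without cadmium and 1.68 with it.

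The 124 members that were higher fell into groups by their control level. For 44 of them no read was found in any control(RNAi) library, and for 16 none in any of the 12 libraries outside ints-4(RNAi). Only 9 had a control mean of at least 10 normalized reads. After ints-4(RNAi), 17 had a mean below 10, 49 had 10 to 30, 43 had 30 to 100 and 15 had at least 100. For 121 of the 124, and for 155 of the 246 tested, the libraries of the groups did not overlap, as for 49.3% of all features. In groups that the choice did not use, the median of these 124 members was 0.655 normalized reads after numr-1/2(RNAi) alone. With cadmium it was 2.29 for the control, 1.72 after numr-1/2(RNAi) and then 22.8 in the ints-4(RNAi) libraries.

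Among members silent outside ints-4(RNAi), Novel00290 was the most abundant. It had 249, 227 and 241 reads in ints-4(RNAi), 147, 139 and 130 with cadmium, and 0 in the other 12 libraries. It was at least 229-fold higher than control(RNAi), taking 3 reads over the control group as the floor. Novel00197 had 95, 127 and 125 reads in ints-4(RNAi) and 63, 45 and 37 with cadmium, and Novel00190 had 105, 61 and 80 reads, then 78, 81 and 94. They were at least 111-fold and 78.1-fold higher. Novel00132 and Novel00257 were of the same kind, with 55, 65 and 64 and with 54, 32 and 45 reads in ints-4(RNAi).

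Other members with a large difference had a few reads in some of the other 12 libraries. Novel00173 had no read in control(RNAi) and 616, 527 and 557 in ints-4(RNAi), at least 542-fold higher, and 211, 290 and 325 in ints-4(RNAi) with cadmium. Novel00129 had 7, 6 and 4 reads in control(RNAi) and 1713, 1544 and 1364 in ints-4(RNAi), a log2 fold change of 7.94 ± 0.20 (SE, adjusted p = 3.9e-07). Its ints-4(RNAi) libraries lay above every control library by a wide margin. Novel00155 had 139, 114 and 120 reads and Novel00096 had 85, 78 and 72, both from 0 in control(RNAi), at least 119-fold and 74.9-fold higher. Novel00198 had 0, 2 and 0 reads in control(RNAi) and 133, 123 and 116 in ints-4(RNAi). The ints-4(RNAi) libraries of these 5 lay above every control library, but they were named for a large fold. The groups did not overlap for 49.3% of all features.

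**Figure D3:**
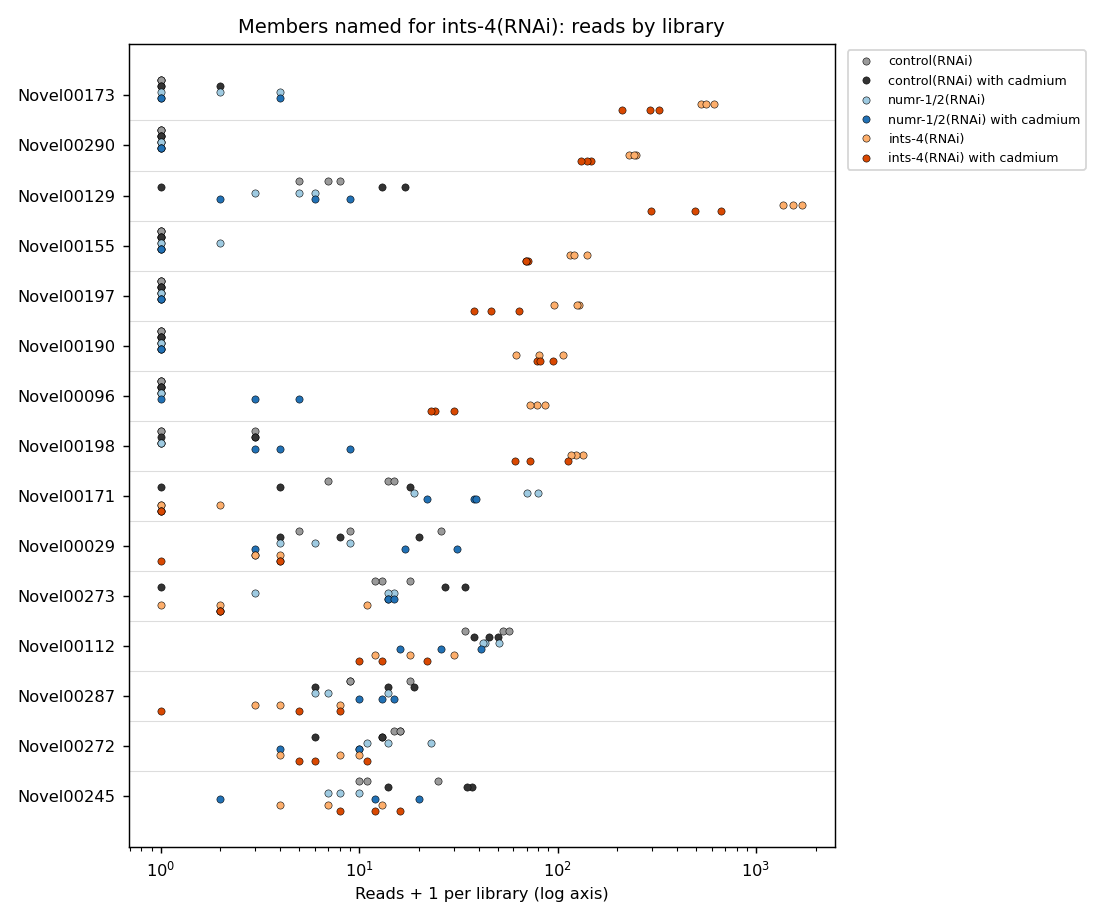
Reads plus 1 per library, on a log axis, of the 8 members with the largest and the 7 with the smallest fold change after ints-4(RNAi), 1 dot per library. In the first 8 the orange dots stand to the right of all others, while among the last 7 most groups overlap.

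The members with a control mean of at least 10 that were also higher included Novel00188, with 32, 70 and 11 reads in control(RNAi) and 322, 246 and 251 in ints-4(RNAi). The log2 fold change was 3.14 ± 0.55 (SE, adjusted p = 0.0032). Novel00086 had 24, 19 and 20 reads in control(RNAi) and 313, 254 and 325 in ints-4(RNAi). Novel00148 had 43, 36 and 33, then 156, 90 and 151. In each of the 3 the groups did not overlap, as for 49.3% of all features.

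Few members were lower. Novel00171 had 6, 13 and 14 reads in control(RNAi) and 0, 1 and 0 in ints-4(RNAi), with a log2 fold change of -3.93 ± 0.72 (adjusted p = 0.0038). Novel00112 had 52, 33 and 56 reads, then 29, 11 and 17, with -1.40 ± 0.41 (adjusted p = 0.029). Novel00176, Novel00294 and Novel00151 were the other 3 that passed. Novel00029, Novel00273, Novel00287, Novel00272 and Novel00245 were at least 2-fold lower by group value and did not pass the test, with adjusted p of 0.065 to 0.20.

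With cadmium on both sides, ints-4(RNAi) again gave more reads for many members. No deposited table holds both groups, so the libraries were put on 1 scale. Of 252 members tested, 92 were higher and 4 lower, against 13.9% and 11.3% of all features. By folds chained over 3 tables, 98 of 197 members were higher and 17 lower, against 9.92% and 7.93%. This comparison shares no library with the one without cadmium, and 79 members were higher in both, 63.7% of the 124 and 85.9% of the 92. Over all features, 1656 were higher in both, 46.2% of 3587 and 66.2% of 2501. Members that met the filter only through their ints-4(RNAi) reads could enter both tests that way. Novel00188 had 39, 36 and 28 reads in control(RNAi) with cadmium and 250, 235 and 312 in ints-4(RNAi) with cadmium, a log2 fold change of 3.01 ± 0.24 (SE, adjusted p = 6.8e-05). The 4 that were lower were Novel00234, Novel00167, Novel00112 and Novel00119. Without library a, b or c of ints-4(RNAi) with cadmium the count of higher members was 54, 47 or 57, and without library c of control(RNAi) with cadmium it was 95 higher and 7 lower. Over all features these were 1668, 1265 or 1770 higher, from 2501, and then 2959 higher and 2130 lower.

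The next comparison asks what cadmium does in control(RNAi) worms. Of 161 members tested, 16 were higher and 2 lower, against 9.94% and 9.74% of all features. By fold alone, 27 of 111 members were higher and 4 lower, against 8.6% and 4.48%. In the library test 9.94% of the members were higher, the share of all features. The count of higher members changed when a library was left out. It was 7 without library a and 7 without library b of control(RNAi) with cadmium, 9 without library b and 8 without library c of control(RNAi), and 13 without the library that stood apart. Over all features 1699 were higher, and in the same order 1113, 1120, 1571, 1038 and 1647.

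Cadmium raised a small set of members in more than 1 RNAi. The response within numr-1/2(RNAi) shares no library with that in control(RNAi), and 25 of 158 members were higher there and 6 lower, against 18% and 17.4% of all features. Of the 16 higher in control(RNAi), 10 were also higher in numr-1/2(RNAi), 62.5% of the 16 and 40% of the 25, against 74.0% and 40.9% over all features. In ints-4(RNAi), 8 of 253 members were higher and 16 lower, against 8.35% and 6.38% of all features, and all 8 were among the 16 (50% of these), against 55.5% and 51.1% over all features. By fold alone, 30 of 112 members were higher and 5 lower in numr-1/2(RNAi), against 9.82% and 5%. For ints-4(RNAi) these were 9 and 24 of 204, against 3.94% and 3.03%. Novel00030, Novel00060, Novel00082, Novel00086, Novel00107, Novel00162 and Novel00293 were higher with cadmium in all 3. The count of higher members was 16 without library b of numr-1/2(RNAi) with cadmium, and in ints-4(RNAi) it was 4 without library b with cadmium and 5 without library a or b of the untreated group. Over all features these fits gave 2285 higher, from 3078, and then 907, 877 and 1179, from 1565.

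Novel00082 was read almost only with cadmium. Without cadmium it had 0 reads in every library but 1 of ints-4(RNAi), which had 1. After exposure it had 33, 11 and 42 reads in control(RNAi). In exposed numr-1/2(RNAi) worms the counts were 32, 25 and 10, while ints-4(RNAi) worms had 7, 11 and 8. It was at least 27.7-fold higher with the metal in control(RNAi), and the bound for numr-1/2(RNAi) was at least 19.5-fold higher. Novel00060 had 22, 21 and 6 reads in control(RNAi) and 73, 70 and 79 with cadmium, and in ints-4(RNAi) 16, 17 and 15, then 61, 76 and 95. Its log2 fold change was 2.30 ± 0.50 and 2.29 ± 0.28 (SE, adjusted p = 0.012 and 0.00064). It did not differ detectably between ints-4(RNAi) and control(RNAi) without cadmium, at 0.12 ± 0.50.

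Other members rose with cadmium and with ints-4(RNAi). Novel00086 had 24, 19 and 20 reads in control(RNAi) and 219, 226 and 269 with cadmium, a log2 fold change of 3.43 ± 0.26 (SE, adjusted p = 3.8e-05). In numr-1/2(RNAi) it had 12, 4 and 5 reads, then 241, 250 and 222. In ints-4(RNAi) it started at 313, 254 and 325 reads and reached 520, 453 and 462 with cadmium. Novel00162 had 0, 6 and 6 reads in control(RNAi), 38, 44 and 32 with cadmium, 38, 47 and 61 in ints-4(RNAi) and 159, 114 and 106 in ints-4(RNAi) with cadmium. Novel00030 had 16, 13 and 15 reads, then 67, 81 and 71 with cadmium. For each of the 3 the cadmium libraries of control(RNAi) lay above the untreated ones. In that comparison the groups did not overlap for 41 of the 161 members tested and for 37.4% of all features.

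**Figure D4:**
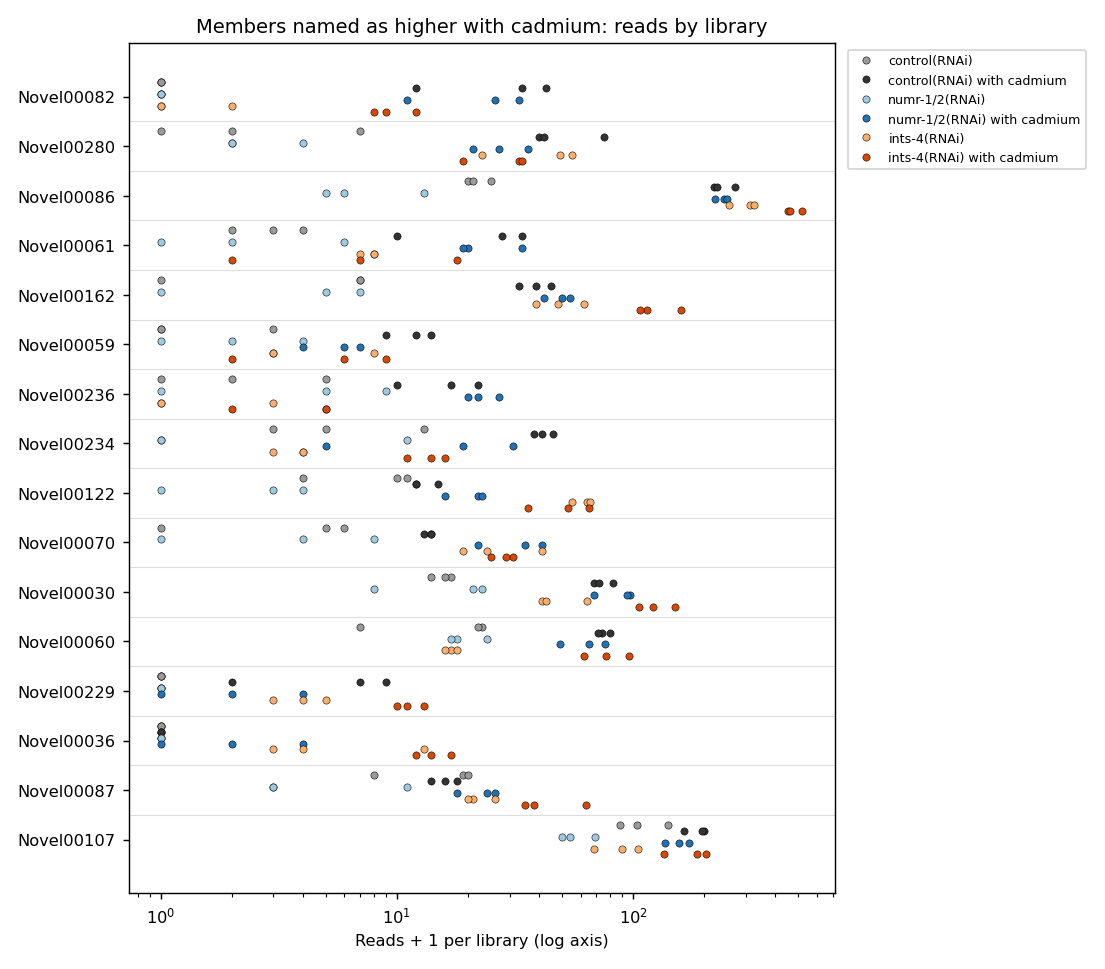
Reads plus 1 per library, on a log axis, of the members named as higher with cadmium in any RNAi, 1 dot per library. Novel00082 has dots away from the left edge mainly in the 9 cadmium libraries, and Novel00086 has its lowest dots in numr-1/2(RNAi) and control(RNAi) without cadmium.

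Further members were named for cadmium. Novel00280 had 1, 6 and 0 reads in control(RNAi) and 39, 41 and 74 with cadmium. Novel00061 had 2, 1 and 3, then 27, 33 and 9, and Novel00234 had 4, 2 and 12, then 40, 45 and 37. All 3 passed the test in control(RNAi), as did Novel00059 with 2, 0 and 0 reads, then 8, 13 and 11. Novel00236 did not, at an adjusted p of 0.056. In numr-1/2(RNAi), Novel00122 had 3, 0 and 2 reads, then 21, 15 and 22, and Novel00070 had 7, 0 and 3, then 21, 34 and 40.

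Only Novel00007 and Novel00015 were lower with cadmium in control(RNAi) by the test. Novel00007 had 300, 291 and 207 reads, then 157, 166 and 125, a log2 fold change of -0.86 ± 0.19 (SE, adjusted p = 0.014). Novel00015 had 224, 208 and 219, then 157, 144 and 139, with -0.61 ± 0.17 (adjusted p = 0.034). Both were also lower with cadmium in ints-4(RNAi). Novel00210, Novel00010, Novel00038 and Novel00147 were at least 2-fold lower by group value, with adjusted p of 0.078 to 0.18. Novel00010 was lower in numr-1/2(RNAi), with 30, 23 and 15 reads, then 6, 5 and 5 (log2 fold change -2.07 ± 0.46, SE, adjusted p = 0.0053).

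Within ints-4(RNAi), cadmium lowered 16 of 253 members, a share near the 6.38% of all features. Novel00129, Novel00096 and Novel00157 were among those named for a low fold in this comparison. The others given here were named for their high level in the same untreated libraries. Both choices favour a fall, so their values are a description. Novel00129 had 1713, 1544 and 1364 reads and then 665, 494 and 294, a log2 fold change of -1.66 ± 0.23 (SE, adjusted p = 0.0012). Novel00096 had 85, 78 and 72, then 29, 23 and 22, with -1.58 ± 0.24 (adjusted p = 0.0021), and Novel00157 had 57, 95 and 75, then 28, 20 and 15. Novel00173, Novel00290, Novel00197 and Novel00155 passed as well, with log2 fold changes of -0.98, -0.71, -1.19 and -0.77. Novel00190, at 105, 61 and 80 reads and then 78, 81 and 94, overlapped between groups. The count of 16 lower members was 6, 8 and 7 without library a, b or c of ints-4(RNAi) and 8 without library b of ints-4(RNAi) with cadmium. Over all features the count of lower ones went from 1195 to 481, 590 and 505, and to 623. Of 45 annotated small nuclear RNA genes tested, 13 were lower as well, and the summed value of all 129 listed was 11880 without and 7079 with cadmium.

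The response to cadmium was then compared between ints-4(RNAi) and control(RNAi) in 1 model with an interaction term. Of 255 members tested, 7 had a lower log2 response in ints-4(RNAi) and 0 a higher one, against 3.83% and 5.33% of all features. A member could meet the filter through its ints-4(RNAi) reads alone. Where it had few or no reads in control(RNAi), its response there depends on the 0.5 added before the log. The count, all in 1 direction, therefore describes the list and is no test of it. At an unadjusted p below 0.05 limma gave 29 lower and 2 higher, with no count over all features at that threshold to set beside them. Novel00086 differed by -2.65 ± 0.22 on the log2 scale (SE, adjusted p = 1.8e-05), with a response of 3.42 in control(RNAi) and 0.77 in ints-4(RNAi). Novel00214 had 0 reads in control(RNAi), 7, 13 and 7 with cadmium, 34, 29 and 32 in ints-4(RNAi) and 67, 32 and 28 with both. Novel00119, one of the 5 most abundant, had 431, 503 and 416 reads in control(RNAi) and 755, 837 and 771 with cadmium, against 621, 631 and 464, then 591, 609 and 448 in ints-4(RNAi). For numr-1/2(RNAi), 0 of 163 members had a larger and 0 a smaller response at an adjusted p below 0.05 (limma), against 2.68% and 1.95% of all features. At an unadjusted p below 0.05 these were 11 and 5, again with no count over all features.

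**Figure D5:**
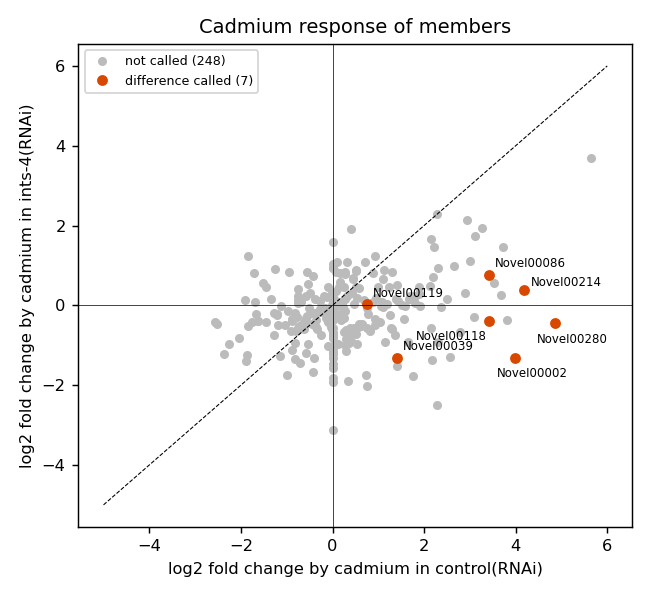
Log2 fold change by cadmium in ints-4(RNAi) against that in control(RNAi) for the 255 members tested, with a dashed line where both are equal. The 7 members whose responses differed, in orange, all lie below the line.

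The last comparisons concern numr-1/2(RNAi). Without cadmium, 11 of 148 members were higher and 7 lower, against 18.8% and 17% of all features. Novel00240 had no read in control(RNAi) and 13, 8 and 14 in numr-1/2(RNAi), at least 11.3-fold higher. Novel00171 had 6, 13 and 14 reads, then 79, 69 and 18, a log2 fold change of 2.07 ± 0.60 (SE, adjusted p = 0.026). Novel00130 had 84, 40 and 50, then 163, 134 and 168, with 1.44 ± 0.26 (adjusted p = 0.0035). Novel00182, among the most abundant, had 646, 207 and 292 reads, then 876, 849 and 807, with 1.28 ± 0.31 (adjusted p = 0.013). In these 4 the groups did not overlap, as for 50.3% of all features. By fold alone, 13 of 97 members were higher and 14 lower, against 8.31% and 7.48%.

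Among the lower ones, Novel00031 had 48, 37 and 38 reads in control(RNAi) and 12, 16 and 3 in numr-1/2(RNAi), a log2 fold change of -2.24 ± 0.56 (SE, adjusted p = 0.014). Novel00123 had 42, 83 and 30, then 4, 18 and 16, with -2.13 ± 0.61 (adjusted p = 0.024). Novel00116, Novel00086 and Novel00244 also passed, while Novel00087, Novel00110 and Novel00150 did not, at adjusted p of 0.054 to 0.11. Genes that mark the stage of the animals moved in this comparison. The summed value of the 6 vitellogenins, yolk proteins of the adult intestine, was 3.94 times that of control(RNAi), and that of 31 major sperm protein genes was 2.62 times. The 3 moulting genes mlt-10, mlt-11 and noah-1 were at 0.192 times. The vitellogenin ratio was 0.152 for cadmium in control(RNAi) and 0.187 for ints-4(RNAi) against control(RNAi). In the same order, the ratio of the sperm protein genes was 0.794 and 1.27, and that of the moulting genes 0.853 and 0.814. The 4 listed genes of oocytes and embryos were at 0.192 and 0.440 times. For numr-1/2(RNAi) against control(RNAi) they were at 1.98 times. The part of stage in the members' values was not tested.

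The count without cadmium was 6 higher without library c of control(RNAi), 6 without library a and 7 without library c of numr-1/2(RNAi), and 3 lower without library b of control(RNAi). Over all features these were 2463, 2261 and 2412 higher, from 3243, and 2462 lower, from 2931. With cadmium on both sides, 5 of 173 members were higher and 5 lower, against 16.8% and 17% of all features. By chained folds 12 of 114 were higher and 9 lower, against 8.58% and 5.16%. The test gave 10 higher and 11 lower without library c of control(RNAi) with cadmium, and 1, 1 or 2 higher without library a, b or c of numr-1/2(RNAi) with cadmium. Over all features these were 3532 higher and 3459 lower, then 2061, 1749 or 2038 higher, from 2894 higher and 2927 lower. Novel00054 was higher in both numr-1/2 comparisons, which share no library, with 100, 51 and 46 reads in control(RNAi) against 160, 150 and 182, and 58, 69 and 18 against 130, 122 and 143 with cadmium. Novel00123 was lower in both.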

How the data were processed

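Poly(A)-selected RNA of 18 libraries was sequenced as paired reads. According to the submitters' processing notes, HISAT2 2.1.0, HTSeq 0.6.1 and Cufflinks 2.1.1 were used, and the role of Cufflinks and the genome build are not given in the sources used here. The authors deposited 5 tables that give 1 normalized signal value per feature and group, pooled over 3 libraries. Their own fold changes, p-values and significance calls, made with DEGSeq, were not used, nor were the splicing tables, which hold no unannotated transcript.

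Each deposited signal value was found to be a mean of 3 whole read counts, each divided by a size factor of its library. The value of 1 read was read from the lowest values of each column, and every value up to 100000 was then solved for 3 whole numbers. This gave a single solution for 97.6% to 99.9% of the features above 0 and for every member. The lowest value without one was 10053. Features without a single solution in every library compared were left out of the library tests. Where a group stood in several tables, each table alone gave the same reads for all 19617, 19743 and 23430 features compared. Since a deposited value, not a count table, was the starting point, no count model was run.

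Reads divided by the size factors of the table, plus 0.5, were compared on the log2 scale with limma 3.58.1 (trend) in R 4.3.3, for features with a mean of at least 3 reads per library. P-values were adjusted over all features after Benjamini and Hochberg, with a threshold of 0.05. The size factors over all 18 libraries served for levels, for RNAi effects with cadmium and for the interaction. Folds of the group values used a pseudocount of 1, a 2-fold threshold and a larger value of at least 10. The study's methods give 3 biological replicates per group, and p-values measure the spread between these libraries. Biotypes were taken from the WBcel235 annotation of Ensembl release 115 for 46364 of 46726 annotated genes. Intervals and floors cover counting error only. The scripts were tested on simulated data.

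The naming rule listed up to 8 members with the largest and 8 with the smallest fold among those past the fold rule. It did so for each comparison whose groups stand in the same deposited table, and it also listed the 8 with the largest mean. Not every listed member is described, and the choice among them followed no set rule. Others that passed the test were named after their values were seen. The members and lists were chosen with earlier results of these data known. Positions near small nuclear RNA genes were not analysed here. Splitting and counting ran in Python 3.11.15 (NumPy 2.4.6, pandas 2.3.3).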

Additional observations from a re-analysis of the deposited data

Results flagged for a closer look

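The response to cadmium differed between ints-4(RNAi) and control(RNAi) for 7 of 255 members by the interaction test (limma, adjusted p of 1.8e-05 to 0.036), all lower, a share of 2.75% against 3.83% of all features. The difference, ints-4(RNAi) minus control(RNAi) on the log2 scale, was -2.65 for Novel00086, -3.79 for Novel00214, -5.30 for Novel00002, -5.30 for Novel00280, -2.73 for Novel00039, -3.79 for Novel00118 and -0.73 for Novel00119. Novel00002 had 0 reads in control(RNAi), 6, 10 and 7 with cadmium, 46, 41 and 23 in ints-4(RNAi) and 27, 26 and 3 with both. Novel00039 had 9, 12 and 7 reads, then 41, 15 and 29, and in ints-4(RNAi) 102, 139 and 76, then 41, 49 and 29. Novel00118 had 1, 0 and 0, then 6, 5 and 12, and in ints-4(RNAi) 30, 15 and 18, then 9, 16 and 21. Novel00280 had 54, 22 and 48 reads in ints-4(RNAi), then 18, 32 and 33. Fitted values of members at or near 0 reads in control(RNAi) depend on the amount added before the log.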

How the results depend on the processing

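The counts by fold depended most on the filter and the threshold. Counts are given as higher and lower. With no filter on low values they were 62 and 19 for cadmium in control(RNAi), 35 and 41 after numr-1/2(RNAi) alone, 161 and 15 after ints-4(RNAi) alone, 67 and 15 for cadmium in numr-1/2(RNAi), 17 and 31 for cadmium in ints-4(RNAi), 34 and 33 for numr-1/2(RNAi) with cadmium on both sides and 143 and 26 for ints-4(RNAi) with cadmium on both sides. In that order the members considered were 244, 242, 283, 250, 282, 249 and 280. All features gave 11.1% and 7.52%, 9.13% and 10.3%, 18.6% and 7.90%, 12.0% and 6.47%, 5.94% and 6.49%, 10.2% and 7.68%, and 16.7% and 8.22%. With a larger value of at least 50 the counts were, in the same order, 6 and 0, 5 and 3, 28 and 0, 8 and 1, 4 and 6, 5 and 2, and 18 and 0. The members considered were 36, 33, 60, 41, 62, 42 and 51. All features gave 6.46% and 3.55%, 7.65% and 6.40%, 7.94% and 8.09%, 7.83% and 4.42%, 3.04% and 1.71%, 7.79% and 3.54%, and 6.07% and 7.21%. With a 4-fold threshold the counts were 13 and 0, 3 and 1, 100 and 2, 11 and 1, 1 and 2, 1 and 0, and 72 and 3. The members considered were 111, 97, 198, 112, 204, 114 and 197. All features gave 2.74% and 1.24%, 1.24% and 1.53%, 7.07% and 2.07%, 2.75% and 0.938%, 0.690% and 0.360%, 1.36% and 0.639%, and 4.73% and 2.34%. The number of members considered changed with the filter. After ints-4(RNAi) alone, 56.9% of 283 members were higher with no filter and 46.7% of 60 with a larger value of at least 50. Of all features 18.6% and 7.94% were. For cadmium in control(RNAi) these were 25.4% of 244 and 16.7% of 36 members, against 11.1% and 6.46%. At 4-fold, 50.5% of 198 members were higher after ints-4(RNAi) alone, against 7.07%. With a pseudocount of 5, 7, 4, 2, 14, 5 and 10 members were lower from the second comparison on, and 5 were higher for cadmium in ints-4(RNAi). Of all features 6.28%, 7.56%, 4.44%, 2.19%, 3.97% and 7.03% were lower, and 3.02% were higher for cadmium in ints-4(RNAi). With a pseudocount of 0, which leaves out members at 0, 65 of 159 were higher for ints-4(RNAi) with cadmium on both sides. The share of all features was 8.54%. Of members above 0 in all 6 groups, 60 and 50 were higher for ints-4(RNAi) without and with cadmium, and 13 were lower for cadmium in ints-4(RNAi). The members considered were 142, 146 and 143, and the shares of all features were 9.82%, 7.85% and 2.17%. Rescaling to annotated genes and the range of 10 to 100, the latter chosen after seeing the data, kept every count within 1.5 times. By limma, 8 members were higher for numr-1/2(RNAi) with cadmium on both sides with voom and also with a prior of 2, and 56 for ints-4(RNAi) with cadmium on both sides with a mean of at least 10 reads. Over all features these were 2999 and 2941 of 17253, and 2254 of 15874. Factors over 18 libraries, also chosen after seeing the data, kept the counts within 1.5 times. Leaving out 1 library at a time gave, in the same order, 7 to 13 and 1 to 3, 6 to 15 and 3 to 7, 96 to 133 and 2 to 5, 16 to 28 and 4 to 7, 4 to 7 and 6 to 24, 1 to 10 and 1 to 11, and 47 to 95 and 0 to 7. Over all features, these fits for ints-4(RNAi) alone gave 2401 to 4189 higher and 2362 to 3330 lower. For the interaction, leaving out 1 library gave 0 to 1 higher and 6 to 11 lower in ints-4(RNAi), and 0 to 1 in each direction in numr-1/2(RNAi). The cause of these shifts was not tested. No named member changed direction by limma in any setting run; of 264 fits without 1 library for the 44 named results past the threshold, 213 stayed past it and 51 did not, and of 168 for the 28 others, 14 passed. No paired analysis was possible because the deposited values are pooled and the libraries split from them carry no replicate number. Distances to annotated genes were not run, since no coordinates of the members were at hand. Depth limits members with few reads: those with a mean below 3 were not tested.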
